A study of Mus musculus with 7 samples.

Results

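The structural subunits and assembly factors of respiratory complex I (NADH:ubiquinone oxidoreductase) were compared between left ventricles of mice homozygous for the titin A178D allele and of wild-type (WT) mice. Members were all genes whose mouse symbol starts with Nduf and that had at least 10 counts in at least 3 libraries, which gave 46 of 13894 tested genes. They comprise 36 structural subunits (10 of the N module, 6 of the Q module, 9 of the proximal and 11 of the distal membrane arm), 8 assembly factors named Ndufaf, and 2 genes outside complex I, Ndufa4 and Ndufa4l2. The count table held 47 Nduf symbols, of which Ndufa11b stayed below the minimum, and 2 minor entries of Ndufb4 were set aside. Ndufb1-ps, Ndufb4c, Ndufs6b and Ndufab1-ps were not analysed here, and genes with near-identical copies, such as Ndufb4, may share reads with them.

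The series holds RNA sequencing of left ventricle from 3 WT hearts (replicates 1, 3 and 4) and 4 A178D hearts (replicates 1 to 4), with 1 library per heart. The A178D mice carry a single-base substitution in both copies of Ttn, made with CRISPR-Cas9 in C57BL/6N embryonic stem cells together with a silent restriction site, and the line was crossed to C57BL/6J (Envigo) for at least 5 generations before WT and homozygous littermates were bred. Age and sex of the sequenced mice are not given in the sources used here. Library totals were 51797208, 54245530 and 41102868 counts for the WT hearts and 40623300, 52345529, 42174448 and 33080675 for the A178D hearts.

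Complex I takes electrons from NADH and passes them to ubiquinone while it pumps protons across the inner mitochondrial membrane. The N module binds NADH, the Q module reduces ubiquinone, and the proximal and distal parts of the membrane arm carry the proton path. Its core subunits hold the flavin, the iron-sulphur clusters and the pumps and are partly encoded by mitochondrial DNA, the supernumerary subunits surround them, and assembly factors join the modules without staying in the finished enzyme.

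Levels are given in CPM (counts over library sizes scaled by the trimmed mean of M values), with WT replicates 1, 3 and 4 first and A178D replicates 1 to 4 after them. The 8 ventricular cardiomyocyte markers summed to 96215, 102323 and 101637 in the WT hearts and 96932, 96705, 95059 and 104504 in the A178D hearts, with Myh6 the most abundant at a mean of 38374. The 4 atrial markers summed to 2.05, 1.89 and 1.90 in the WT hearts and 4.21, 2.22, 2.60 and 3.06 in the A178D hearts, with Myl4 most abundant (mean 2.49) and Bmp10 at 0 in every library, matching the tissue label of left ventricle. Among markers of other cells, the 7 of smooth muscle and pericytes summed to 755, 760.2 and 704 in the WT hearts and 480.4, 553, 578 and 523 in the A178D hearts, with Acta2 most abundant (mean 154) and none at 0, and 4 of them (Acta2, Myh11, Tagln and Cnn1) were called lower in A178D. The 7 fibroblast markers summed to 1130.2, 1161 and 1050.4 in the WT hearts and 1365, 1289, 1236 and 1254 in the A178D hearts, with Dcn most abundant (mean 579.9) and none at 0, and Col3a1 was called higher. Of the 6 endothelial markers Flt1 was called lower, and of the 4 brown adipocyte markers Cidea was called higher. Among all tested genes 1.04% were called higher and 1.31% lower. The log2 fold change of Cidea was 0.43, and 0.33 with the length and GC trends described below removed. In the latter fit edgeR did not call it (adjusted p = 0.0692). That fit called 5 smooth muscle and pericyte markers lower, 3 fibroblast markers higher and 1 endothelial marker, beside 525 of all 13894 genes. The brown adipocyte sum of 32.9, 26.6 and 30.99 in the WT hearts and 40.1, 39.4, 41.7 and 41.4 in the A178D hearts was nearly all Cidea, since Ucp1 and Elovl3 were close to 0 and Otop1 was at 0 in every library. Endothelial markers had mean sums of 1077 in WT and 1032 in A178D, the 6 macrophage markers 191 and 209, the 3 erythrocyte markers 76.1 and 83.9, the 4 of skeletal muscle 2.74 and 2.182, and the 4 of white adipocytes 0.777 and 0.681. Whether the cell make-up of the hearts moves with the complex I values was not tested, and fewer cells of a type and less RNA per cell cannot be told apart in bulk tissue.

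The 36 subunits together summed to 12865, 14261 and 14824 in the WT hearts and 15184, 14157, 14018 and 16547 in the A178D hearts. The A178D hearts averaged 14976 with an SD of 1169 (n = 4) and the WT hearts 13983 with an SD of 1009 (n = 3), and the groups overlapped. WT replicate 1 gave the lowest sum and A178D replicate 4 the highest. At an adjusted p under 0.05 (Benjamini-Hochberg), the quasi-likelihood test of edgeR called 0 of the 46 Nduf genes, while over all 13894 genes it called 145 higher (1.04%) and 182 lower (1.31%) in A178D. Limma-voom also called 0 of the 46, and DESeq2 called 1 higher, Ndufaf1, against 306 higher among all genes (2.2%), where limma-voom called 326, of which 148 were higher. At an unadjusted p under 0.05, 5 members were higher (Ndufaf1, Ndufs5, Ndufv3, Ndufc1 and Ndufb8) and 0 lower by edgeR, 5 were higher by limma-voom and 7 by DESeq2. Over all genes edgeR gave 1102 higher (7.93%) and 1224 lower (8.81%) at that level, limma-voom 1105 and 1249, and DESeq2 1139 and 1214. Counts over all genes depended on single libraries: without WT replicate 3 edgeR called 24 higher and 32 lower, without WT replicate 4 it called 40 and 42, without A178D replicate 1 it called 40 and 50, without A178D replicate 2 it called 100 and 115, and without A178D replicate 3 it called 77 and 112. The count for complex I was 0 in each of these fits.

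Although no single gene was called by edgeR, 35 of 36 subunits had a log2 fold change above 0, beside 7018 of all tested genes (50.5%). Their median was 0.13, the range -0.050 to 0.22 and the median SE 0.087. Supernumerary subunits were above 0 in 29 of 29 cases with a median of 0.14, and core subunits in 6 of 7 with a median of 0.075. In every module the median was of similar size, at 0.14 for N, 0.12 for Q, 0.12 for the proximal arm and 0.14 for the distal arm. For 34 of 36 subunits WT replicate 1 was the lowest of all hearts (94.4%, beside 16.4% of all tested genes), and for 32 of 36 A178D replicate 4 was the highest (88.9%, beside 23.3%). Without WT replicate 1 the subunit median was 0.071, and without A178D replicate 4 it was 0.060. With both of these libraries left out, which was tried once the data had been seen, it was 0.0019 and 19 of 36 subunits lay above 0. Since these libraries held the lowest and highest subunit levels, a lower median follows from leaving them out.

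Complex I subunits are short transcripts, with a median length of 939.5 bases (419 to 4371) beside 3037.5 bases over all tested genes. The relation of counts to transcript length differed between libraries. Over the 13846 other genes with a known length, the slope in log2 units for each doubling of length was 0.078 in WT replicate 1, 0.012 in WT replicate 3 and 0.023 in WT replicate 4. In the A178D libraries it was -0.014, 0.015, 0.016 and -0.13 for replicates 1 to 4. WT replicate 1, where long transcripts read high, had the lowest complex I subunits, with a mean log2 deviation from the average of all libraries of -0.19, and A178D replicate 4, where short transcripts read high, had the highest, at 0.21. The other libraries stood at -0.029 and 0.022 (WT replicates 3 and 4) and 0.071, -0.032 and -0.052 (A178D replicates 1 to 3). The Spearman correlation of length with log2 fold change across the 36 subunits was -0.24, a description only, since the genes are not independent. It was -0.014 for the 29 supernumerary and -0.75 for the 7 core subunits. By module it ran from -0.67 (N) to 0.38 (proximal arm). With the length and GC trends removed, it was 0.35 across the 36, by the longest principal transcript of each gene. In that fit Ndufb2, at 4371 bases, had a log2 fold change of 0.21, although its shortest principal transcript has 455 bases.

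All tested genes were ordered by length into 10 classes of equal size, and the class of the shortest transcripts (311 to 1270 bases, 1390 genes) held 26 of the 36 subunits and 4 assembly factors. Its median log2 fold change was 0.11 with 76.1% of genes above 0, and the 26 subunits within it had a median of 0.14 with 26 above 0. WT replicate 1 was the lowest heart for 43.5% and A178D replicate 4 the highest for 55.5% of the genes in this class. The next class held 6 subunits and had a median of 0.067, where its subunits had 0.073. Medians were lower in each further class, down to -0.10 for the longest transcripts, where 27.3% of genes lay above 0 and which held 0 subunits and 0 assembly factors. With WT replicate 1 and A178D replicate 4 left out, the classes of the shortest and longest transcripts had medians of 0.013 and -0.013. Smaller medians follow from leaving out these libraries, which had the steepest slopes with length.

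When each library's trends with length and GC content were removed by offsets, the subunit median was 0.022 with 23 of 36 above 0, beside 6978 of all tested genes above 0 (50.2%). With these offsets the subunits of the N module had a median of 0.0081, those of the Q module 0.017, the proximal arm 0.020 and the distal arm 0.027, and 0 of the 36 subunits had an unadjusted p under 0.05, beside 1274 genes higher and 1369 lower among all 13894. Mean log2 deviations of the subunits were then -0.074, -0.0039 and 0.041 in WT and 0.031, -0.015, -0.032 and 0.059 in A178D hearts. A difference in complex I transcripts that follows their length cannot be told apart from a difference between libraries in how length was read, and the source of the length trends was not tested.

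**Figure D1:**
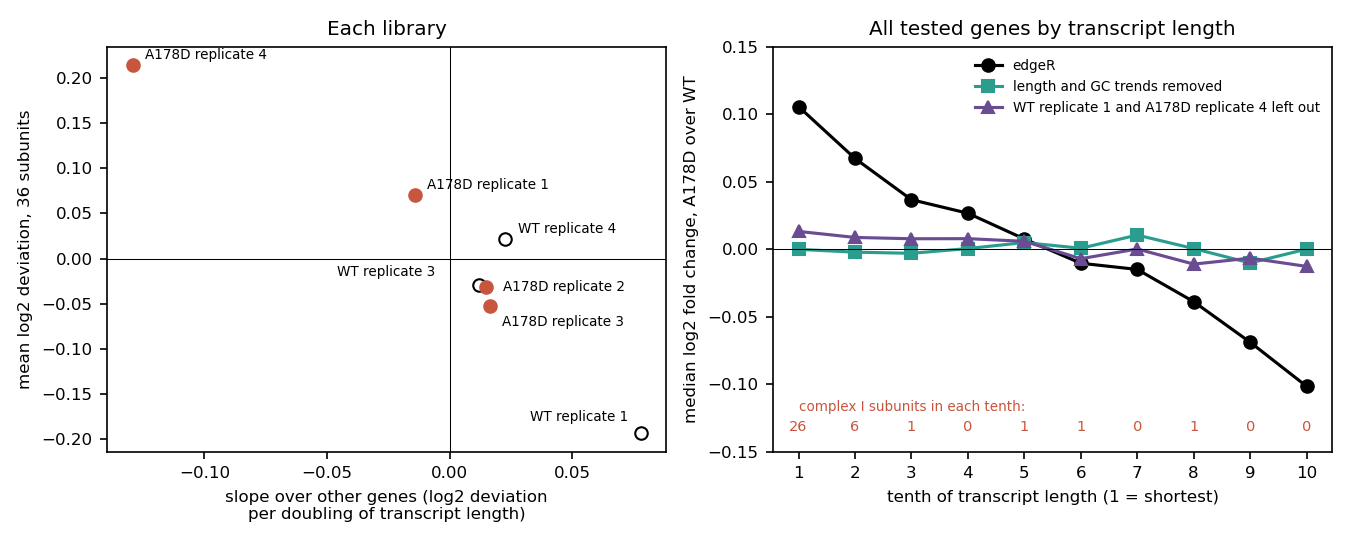
Slope of each library with transcript length against the mean level of the 36 complex I subunits (left), and median log2 fold change of all tested genes in 10 classes of transcript length (right).

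The N module subunits summed to 3718, 4145 and 4360.4 in the WT hearts and 4383, 4054, 3936 and 4617 in the A178D hearts, and the groups overlapped. Of its 10 genes 9 had a log2 fold change above 0, 0 were called by edgeR, DESeq2 or limma-voom, and 1 had an unadjusted p under 0.05 by each of them (Ndufv3 by edgeR and DESeq2). Among all tested genes edgeR gave 7.93% higher at that level, so 1 of 10 is near that share. Without WT replicate 1 the module's median was 0.043, and without A178D replicate 4 0.055. Ndufv1, which binds NADH and the flavin, read 944, 1042 and 1046 in the WT hearts and 1001, 997, 955 and 1169 in the A178D hearts. A178D replicate 4 was the highest heart and WT replicate 1 the lowest, the other hearts overlapped, and the log2 fold change was 0.028 (SE 0.078, adjusted p = 0.902), at -0.016 without WT replicate 1 and -0.038 without A178D replicate 4. Its partner Ndufv2 stood at 542, 639 and 689 in the WT hearts and 688, 605, 583 and 679 in the A178D hearts. WT replicate 4 was the highest heart and WT replicate 1 the lowest, and the log2 fold change was 0.035 (SE 0.089, adjusted p = 0.887), at -0.053 without WT replicate 1 and -0.0023 without A178D replicate 1. Ndufs1, an iron-sulphur subunit of this module, read 898, 919 and 1033 in the WT hearts and 983, 902, 897 and 889 in the A178D hearts. It was the only subunit with a value below 0, at -0.050 (95% interval -0.20 to 0.10, adjusted p = 0.775), the groups overlapped, and without WT replicate 4 it was 0.014.

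The supernumerary N module subunit Ndufv3 had the highest log2 fold change of all subunits. It read 269.9, 329 and 339 in the WT hearts and 376, 336, 335 and 410.1 in the A178D hearts. A178D replicates 2 and 3 lay below WT replicate 4, so the groups overlapped, and the log2 fold change was 0.22 (95% interval 0.018 to 0.42, adjusted p = 0.261). With the length and GC trends removed it was 0.14, and without WT replicate 1 0.13. Ndufa2 stood at 209.6, 243 and 247 in the WT hearts and 273, 245, 236 and 321 in the A178D hearts. A178D replicate 4 was the highest heart, the other A178D hearts lay among or just above the WT hearts, and the log2 fold change was 0.20 (SE 0.10, adjusted p = 0.331). It was 0.11 without A178D replicate 4 and 0.065 with the length and GC trends removed.

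The 6 subunits of the Q module summed to 3076, 3365 and 3508 in the WT hearts and 3620.5, 3373, 3360.1 and 3932 in the A178D hearts, and the groups overlapped. Log2 fold changes were above 0 for all 6, while edgeR, DESeq2 and limma-voom called 0 and gave 0 with an unadjusted p under 0.05. The median without WT replicate 1 was 0.073, and without A178D replicate 4 0.056. Ndufs3 stood at 329.7, 360.1 and 359 in the WT hearts and 369, 354, 357 and 427 in the A178D hearts. A178D replicate 4 lay above all others and the remaining 6 hearts overlapped, with a log2 fold change of 0.11 (SE 0.078, adjusted p = 0.530), at 0.069 without WT replicate 1, 0.042 without A178D replicate 4 and -0.0016 with the length and GC trends removed. Ndufs7 showed the same single high heart, at 429, 462 and 447 in the WT hearts and 451, 442, 439 and 549 in the A178D hearts. Its log2 fold change was 0.075 (SE 0.083, adjusted p = 0.698) with all hearts, the groups overlapped, and it was -0.0075 without A178D replicate 4. Ndufs8 read 255, 307 and 312 in the WT hearts and 342, 309.5, 297 and 364 in the A178D hearts. A178D replicates 1 and 4 were above every WT heart and replicates 2 and 3 were not, and the log2 fold change was 0.17 (SE 0.090, adjusted p = 0.364), at 0.087 without WT replicate 1 and 0.062 with the length and GC trends removed.

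Proximal membrane arm subunits summed to 2358, 2670.1 and 2740.2 in the WT hearts and 2838, 2638, 2617 and 3137 in the A178D hearts, and the groups overlapped. Each of the 9 had a log2 fold change above 0, from 0.042 for Ndufa1 to 0.20 for Ndufc1, and 2 had an unadjusted p under 0.05, with 0 called by edgeR. Of all tested genes 7.93% were higher at that unadjusted level by edgeR. DESeq2 and limma-voom also called 0 of the 9, and each gave the 2 an unadjusted p under 0.05. The arm's median was 0.051 without WT replicate 1 and 0.056 without A178D replicate 4. With the length and GC trends removed, 5 of the 9 lay above 0 and Ndufa1 was -0.092. Ndufa1, like the other genes outside the naming rule, is given after its value was seen. Ndufs5 read 93.9, 97.98 and 105 in the WT hearts and 105, 108, 111 and 123 in the A178D hearts. All 4 A178D values exceeded the 3 WT values, by a small margin between WT replicate 4 and A178D replicate 1, and the log2 fold change was 0.18 (95% interval 0.017 to 0.34, adjusted p = 0.252). With the length and GC trends removed it was 0.058. Ndufc1 stood at 169, 199 and 203 in the WT hearts and 219, 199.7, 204 and 248 in the A178D hearts. A178D replicate 2 lay between WT replicates 3 and 4, so the groups overlapped, and the log2 fold change was 0.20 (SE 0.089, adjusted p = 0.290). For Ndufc1 the value was 0.12 without WT replicate 1, 0.13 without A178D replicate 4 and 0.049 without both. With the length and GC trends removed it was 0.13 by its longest principal transcript (1249 bases) and 0.041 by its shortest (315 bases).

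The distal membrane arm, built from the Ndufb subunits and the acyl carrier protein Ndufab1, summed to 3713, 4082 and 4216 in the WT hearts and 4342, 4092, 4105 and 4859.6 in the A178D hearts, with overlapping groups. All 11 genes were highest in A178D replicate 4 and higher on average in A178D, with 0 called by edgeR, limma-voom or DESeq2. Unadjusted p was under 0.05 for 1 of them by edgeR, 1 by limma-voom and 2 by DESeq2. By edgeR 1 of 11 is near the 7.93% of all tested genes that were higher at that level. Without A178D replicate 4 the arm's median was 0.084. Ndufb8 had the highest level of all subunits per kilobase of transcript (1123 CPM per kilobase, averaged over the 7 hearts). It read 683, 728 and 738 in the WT hearts and 789, 762, 756 and 891 in the A178D hearts. The lowest A178D heart was higher than the highest WT heart, with a log2 fold change of 0.16 (95% interval 0.0018 to 0.32, adjusted p = 0.292), which was 0.10 without A178D replicate 4 and 0.027 with the length and GC trends removed. At the other end of the scale, Ndufb2 had the lowest level per kilobase of its longest principal transcript (44.7 CPM per kilobase over 4371 bases), although over its shortest principal transcript of 455 bases it had 429. Its CPM were 169, 187 and 194 in the WT hearts and 201, 193, 189 and 234 in the A178D hearts. WT replicate 4 lay above A178D replicates 2 and 3, and the log2 fold change of Ndufb2 was 0.16 (SE 0.084, adjusted p = 0.380), at 0.10 without WT replicate 1 and 0.084 without A178D replicate 4. It was 0.21 with the length and GC trends of its longest principal transcript removed and 0.013 with those of its shortest.

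**Figure D2:**
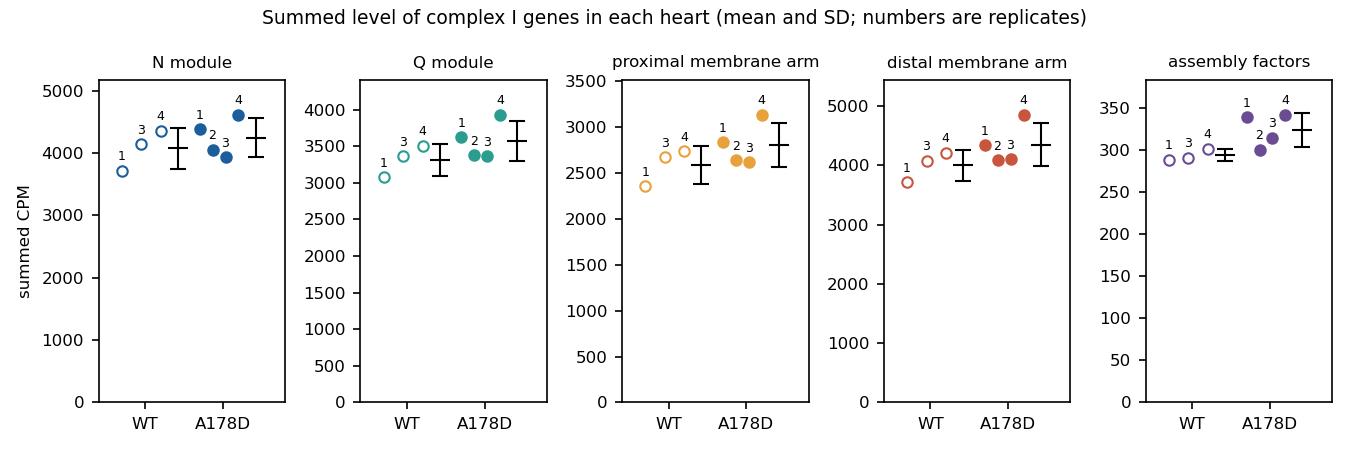
Summed CPM of the complex I modules and of the assembly factors in each heart, with mean and SD. Numbers beside the points are the replicates.

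Assembly factors named Ndufaf had lower levels per kilobase than any subunit they help to join, from 15.3 (Ndufaf6) to 44.1 CPM per kilobase (Ndufaf1). Their sum was 289, 291 and 302 in the WT hearts and 339.7, 301, 315 and 343 in the A178D hearts. A178D replicate 2 lay below WT replicate 4 and the other A178D hearts lay above every WT heart, with a mean of 325 (SD 20.1, n = 4) beside 294 in WT (SD 7.02, n = 3). For 7 of 8 assembly factors the log2 fold change was above 0, and their median of 0.12 was 0.052 with 5 of 8 above 0 when the length and GC trends were removed. edgeR and limma-voom called 0 of the 8, with 1 at an unadjusted p under 0.05 by each, and DESeq2 called 1, with 2 at that level. All were higher, beside 7.93% of all genes higher at that level by edgeR, and 306 called higher by DESeq2 (2.2%). With the length and GC trends removed, Ndufaf1 and Ndufaf4 had an unadjusted p under 0.05, both higher, beside 1274 genes higher and 1369 lower among all 13894.

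Ndufaf1, a factor of early membrane arm assembly, had the lowest p of all 46 members. It read 60.05, 54.9 and 57.4 in the WT hearts and 73.3, 65.9, 66.9 and 69.7 in the A178D hearts. The A178D values all exceeded the WT values, as in 3 of the 46 members (Ndufaf1, Ndufs5 and Ndufb8) beside 1058 of all tested genes (7.61%), while the reverse held for 0 members and 1184 of all genes (8.52%). The log2 fold change was 0.26 (95% interval 0.11 to 0.42, adjusted p = 0.0744 in edgeR). DESeq2 called it with an adjusted p of 0.0193, and over all alternatives the adjusted p ran from 0.0193 to 0.279 and the log2 fold change from 0.19 to 0.30. It was 0.20 with the length and GC trends removed and 0.29 with WT replicate 1 and A178D replicate 4 left out, and the latter fit called it.

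Ndufaf8 stood at 27.9, 29.2 and 25.4 in the WT hearts and 30.8, 28.7, 30.4 and 41.5 in the A178D hearts. A178D replicate 4 lay far above the other hearts, the rest overlapped, and the log2 fold change was 0.25 (SE 0.12, adjusted p = 0.299) with all hearts, 0.12 without A178D replicate 4 and 0.12 with the length and GC trends removed. Ndufaf6, the assembly factor with the lowest level per kilobase, read 15.03, 15.02 and 16.7 in the WT hearts and 18.4, 17.1, 16.2 and 17.5 in the A178D hearts. WT replicate 4 lay above A178D replicate 3, and the log2 fold change was 0.15 (SE 0.092, adjusted p = 0.441), at 0.056 with the length and GC trends removed. Ndufaf5 stood at 24.8, 25.7 and 27.8 in the WT hearts and 28.4, 26.8, 27.9 and 26.5 in the A178D hearts. The groups overlapped, and the log2 fold change was 0.070 (SE 0.080, adjusted p = 0.709), at 0.037 without WT replicate 1, 0.12 without WT replicate 4 and -0.012 with the length and GC trends removed. Ndufaf7 was the only assembly factor with a log2 fold change below 0 and read 33.2, 35.1 and 36.99 in the WT hearts and 35.9, 31.3, 34.4 and 36.6 in the A178D hearts. A178D replicate 2 was the lowest heart, the groups overlapped, and the log2 fold change was -0.025 (SE 0.082, adjusted p = 0.919), at 0.014 without WT replicate 4 and 0.024 without A178D replicate 2. Ndufaf4, named after its values were seen, read 75.6, 73.1 and 80.3 in the WT hearts and 92.4, 74.3, 82.6 and 82.4 in the A178D hearts. A178D replicate 2 lay among the WT hearts, and the log2 fold change was 0.12 (SE 0.080, adjusted p = 0.496) and 0.17 with the length and GC trends removed.

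The 15 tested assembly factors of complex I with other names (Coa1 was not analysed here) had 12 values above 0 around a median of 0.077, and 0.075 with 11 above 0 once the length and GC trends were removed. edgeR and limma-voom called 0 of them, with 3 higher at an unadjusted p under 0.05 by each (Timmdc1, Chchd4 and Lyrm2 by edgeR), and DESeq2 called 2. Over all 13894 genes, edgeR gave 7.93% higher at that level and limma-voom 1105 genes, and DESeq2 called 306 higher (2.2%). Chchd4, which with Aifm1 imports proteins of the intermembrane space, read 34.4, 30.5 and 33.5 in the WT hearts and 43.9, 38.2, 36.1 and 43.8 in the A178D hearts. The groups did not overlap, with A178D higher, and the log2 fold change was 0.30 (SE 0.091, adjusted p = 0.107, 0.0444 to 0.343 over all alternatives), at 0.32 with the length and GC trends removed. Lyrm2, a factor linked to the N module, stood at 30.004, 29.7 and 29.1 in the WT hearts and 36.8, 33.5, 35.2 and 37.3 in the A178D hearts. All A178D hearts were above all WT hearts here too, with a log2 fold change of 0.27 (SE 0.076, adjusted p = 0.0869, 0.0285 to 0.426 over all alternatives) and 0.13 with the length and GC trends removed. DESeq2 called both, at adjusted p of 0.0444 for Chchd4 and 0.0285 for Lyrm2, and edgeR called Chchd4 with the replicate block, length and GC offsets together (0.0484).

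The 7 complex I subunits encoded by mitochondrial DNA (mt-Nd1, mt-Nd2, mt-Nd3, mt-Nd4, mt-Nd4l, mt-Nd5 and mt-Nd6) are listed in the count table with 0 counts in every library, so the part of the core enzyme that they encode was not measured. Ndufa4, once counted as a complex I subunit and since placed in complex IV, had a higher level per kilobase than any complex I subunit (1559 CPM per kilobase). It read 781, 956 and 1017 in the WT hearts and 1065, 885, 905 and 1047 in the A178D hearts. The groups overlapped, and the log2 fold change was 0.087 (SE 0.10, adjusted p = 0.696), at -0.014 without WT replicate 1, 0.17 without WT replicate 4 and -0.021 with the length and GC trends removed. Ndufa4l2, its paralogue induced by hypoxia, stood at 22.3, 23.3 and 18.2 in the WT hearts and 17.1, 16.4, 20.6 and 25.4 in the A178D hearts. A178D replicate 4 was the highest heart and A178D replicate 2 the lowest, with a log2 fold change of -0.10 (SE 0.14, adjusted p = 0.763). Its value was -0.066, -0.035 and -0.20 without WT replicates 1, 3 and 4, and -0.040, -0.018 and -0.24 without A178D replicates 1, 2 and 4, and -0.22 with the length and GC trends removed.

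Complexes II to V gave 35 of 42 tested nuclear genes above 0 beside 35 of 36 for complex I, with a median of 0.070 beside 0.13. With the length and GC trends removed, 11 of 42 lay above 0 with a median of -0.042, beside 23 of 36 and 0.022 for complex I. edgeR and limma-voom called 0 of the 42, with 3 at an unadjusted p under 0.05 by each (Cox6a1, Cox8a and Atpif1 by edgeR), and DESeq2 called 1, Atpif1. These were higher, as were 7.93% of all genes at that level by edgeR, and DESeq2 called 2.2% of all genes higher. Medians were 0.016 for complex II (4 genes), 0.081 for complex III (8 genes, Uqcr11 below the count minimum), 0.085 for complex IV with Ndufa4 (14 genes) and 0.035 for ATP synthase (16 genes). WT replicate 1 was the lowest heart for 36 of the 42, as it was for 34 of 36 complex I subunits. Atpif1, the inhibitor of ATP synthase, read 111, 134 and 118 in the WT hearts and 149.7, 134, 141 and 171 in the A178D hearts. WT replicate 3 lay just above A178D replicate 2 and the other hearts kept apart by genotype. The log2 fold change was 0.30 (SE 0.091, adjusted p = 0.117, 0.0475 to 0.295 over all alternatives), at 0.15 with the length and GC trends removed and 0.16 with WT replicate 1 and A178D replicate 4 left out.

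Complex I oxidises NADH that matrix dehydrogenases produce, and the transhydrogenase Nnt uses NADH and the proton gradient to make NADPH. Of 13 such genes 7 had a log2 fold change above 0 (median 0.0034), and edgeR and limma-voom called 0, with 2 lower at an unadjusted p under 0.05 by each, while DESeq2 called 2. Among all 13894 genes 8.81% were lower at that level by edgeR and 1249 genes by limma-voom, and DESeq2 called 380 lower. Nnt read 1689, 1672 and 1789.7 in the WT hearts and 1449, 1558, 1455 and 1403 in the A178D hearts. All 4 A178D values were under the 3 WT values, with a log2 fold change of -0.23 (95% interval -0.36 to -0.092, adjusted p = 0.0826, 0.0204 to 0.256 over all alternatives) and -0.22 with the length and GC trends removed. edgeR called it in that fit (adjusted p = 0.0264), with length offsets alone (0.0476), with offsets of the shortest principal transcript, with the replicate block, length and GC offsets together (0.0491) and with WT replicate 1 and A178D replicate 4 left out (0.0434), and DESeq2 called it too. The stem cells were C57BL/6N and the backcross used C57BL/6J mice from Envigo, substrains can differ at Nnt, and the Nnt genotype of these hearts was not tested. Ogdh stood at 4015, 4004 and 3759.9 in the WT hearts and 3316, 3489.7, 3392 and 3484 in the A178D hearts. Here too all A178D hearts were lower, with a log2 fold change of -0.20 (SE 0.059, adjusted p = 0.103, 0.0292 to 0.316 over all alternatives) and -0.18 with the length and GC trends removed, where edgeR called it (adjusted p = 0.0292), as it did with offsets of the shortest principal transcript and as DESeq2 did.

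Among 11 transcriptional regulators of respiratory chain genes, 6 had a log2 fold change above 0 (median 0.026), and edgeR and limma-voom called 0, with 2 higher (Tfam and Polrmt by edgeR) and 2 lower (Ppargc1a and Yy1) at an unadjusted p under 0.05 by each, while DESeq2 called 1. By edgeR 7.93% of all 13894 genes were higher and 8.81% lower at that level, and DESeq2 called 380 lower. Ppargc1a, a coactivator of complex I genes, read 137, 149 and 164 in the WT hearts and 127, 126, 122 and 109.8 in the A178D hearts. The groups did not overlap, with A178D lower, at a log2 fold change of -0.31 (SE 0.078, adjusted p = 0.0611, 0.00911 to 0.238 over all alternatives) and -0.21 with the length and GC trends removed. DESeq2 called it, and so did edgeR without a filter on low counts, without WT replicate 1 (adjusted p = 0.0271) and with WT replicate 1 and A178D replicate 4 left out (0.00911). Tfam, which is needed to transcribe the mitochondrial genome with its complex I genes, stood at 54.6, 50.6 and 53.8 in the WT hearts and 64.2, 58.1, 62.4 and 63.5 in the A178D hearts. Its A178D values lay above all WT values, with a log2 fold change of 0.23 (SE 0.071, adjusted p = 0.119, 0.0353 to 0.355 over all alternatives) and 0.27 with the length and GC trends removed, where edgeR called it (adjusted p = 0.0353), as it did with offsets of the shortest principal transcript and with the replicate block, length and GC offsets together (0.0427).

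Promoters of the complex I genes, taken from RefSeq on GRCm38.p6 as 250 bases before to 50 bases after the transcription start, were searched on both strands for motifs of 4 regulators, and 40 of the 46 members had a promoter in that set. These 40 genes had 42 promoters, and members are counted by gene below, while all others are counted by promoter. The YY1 motif AAGATGGCG was present in 6 of the 40 genes (15%), beside 1.40% of all 32851 promoters. The NRF1 motif GCGCATGCG was present in 4 genes (10%), beside 1.75% of all promoters. The ETS motif CCGGAAGT was found in 1 gene, Ndufs3 (2.5%), beside 3.89%, and the ESRRA motif TCAAGGTCA in 0, beside 0.423%. A match describes the sequence and does not show that a factor binds there. The YY1 motif holds the triplet ATG, and whether it overlaps a start of translation in these genes was not tested. In the 6 genes with the YY1 motif it began 11 to 36 bases after the transcription start on the gene's own strand. Their windows follow because they show the same placement in genes of several modules, on the strand of each gene, with the motif in capitals: Ndufc1 at chr3:51408915-51408943 (minus strand), Ndufa9 at chr6:126849097-126849125 (minus), Ndufs7 at chr10:80249463-80249491 (plus), Ndufaf8 at chr11:120098934-120098962 (plus), Ndufs6 at chr13:73328433-73328459 (minus) and Ndufs4 at chr13:114388045-114388069 (minus).

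Ndufc1: cctgcggaacAAGATGGCGccgtccgtag
Ndufa9: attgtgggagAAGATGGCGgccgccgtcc
Ndufs7: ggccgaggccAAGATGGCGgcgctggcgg
Ndufaf8: ggcagggcccAAGATGGCGgcgccctcga
Ndufs6: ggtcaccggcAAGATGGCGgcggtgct
Ndufs4: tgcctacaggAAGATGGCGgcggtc

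The NRF1 windows are shown for the placement of a motif that reads nearly alike on both strands: Ndufa8 at chr2:36049329-36049357 (minus strand, motif in capitals on the opposite strand), Ndufaf5 at chr2:140170652-140170680 (plus), Ndufaf4 at chr4:24897960-24897988 (plus) and Ndufa11 at chr17:56717692-56717720 (plus). Relative to the transcription start, it lay 9 bases before it in Ndufa8, 17 bases after it in Ndufaf5, 113 bases before it in Ndufaf4 and 60 bases before it in Ndufa11.

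Ndufa8: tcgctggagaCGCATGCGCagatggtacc
Ndufaf5: agtcccgttgGCGCATGCGcctaatagaa
Ndufaf4: ccagatgtctGCGCATGCGcctgtgcgga
Ndufa11: cctgcactgcGCGCATGCGcgcacgcctt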

How the data were processed

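RNA was sequenced from left ventricles of 3 WT and 4 A178D mice as stranded poly(A) libraries, 1 per heart. The values are raw counts per gene as deposited by the authors. The submitters' processing notes name bcl2fastq 2.18.0.12, HISAT2 2.1.0, SAMtools 1.6, DESeq2 1.26.0 and build GRCm38, and the counting program and annotation are not given in the sources used here. Among counts of 1 to 20, 17.6 to 20.3% were odd, beside 47.9 to 50.2% of high counts, and counts were therefore also halved as an alternative. A second deposited table was not used, since 107888 of 107888 values compared were the same counts over 1 factor per library. Entries with identical counts in every library and a total of at least 30, and repeats of 1 identifier with the same counts, were each reduced to 1 entry, from 21257 to 20927 entries. Gene names, transcript length and GC content came from GENCODE M21, with the longest principal transcript of each gene.

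A gene was tested where 3 or more libraries had 10 or more counts, with edgeR 4.0.16 (R 4.3.3), by its quasi-likelihood test with TMM normalization and genotype as the only term, tested on simulated data, and called at a Benjamini-Hochberg adjusted p under 0.05 over all 13894 genes. The biological coefficient of variation was 0.111, and library totals ran from 33080675 to 54245530 counts. The median SE of the subunits was 0.087 in log2 units. Intervals are 95% intervals from the SE of the fit, and log2 deviations used a prior count of 2. Length and GC trends were fitted in each library with mgcv 1.9.3 (basis size 6) and used as offsets. Alternatives were DESeq2 1.42.0, limma-voom (limma 3.58.1), DESeq2 size factors, other count filters, the replicate block, length offsets with and without GC content, the deposited table with repeated entries, halved counts, a threshold of 0.01, Ndufa4 counted as a subunit and each library left out. The shortest principal transcript, and leaving out WT replicate 1 and A178D replicate 4 together, were chosen after seeing the data. Members and lists were chosen with earlier results of these data known, so groups of genes are described without a test. Named genes were the members with an unadjusted p under 0.05 or without overlap between the groups, the 3 highest and 3 lowest fold changes of subunits, the 2 highest and 2 lowest of assembly factors, the core subunits, Ndufa4, Ndufa4l2, the highest and lowest level per kilobase, the 2 lowest p of each other list and Nnt, and not every gene the rule takes is printed.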

Additional observations from a re-analysis of the deposited data

Results flagged for a closer look

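In 7 of 66 groups of 4 A178D hearts examined, 1 heart lay far from the other 3, and chance flags about 1 in 20 such groups. A178D replicate 4 stood apart in 6 of them. Ndufaf8 read 41.5 CPM there beside 28.7 to 30.8 in the other A178D hearts, Ndufb10 692 beside 574 to 593, and Ndufs7 549 beside 439 to 451. Outside complex I, Cyc1 read 1171 beside 1022 to 1043, Cox8a 161 beside 122 to 128, and Cox6a1 87.6 beside 71.4 to 73.5. A178D replicate 1 stood apart for Ndufs1, at 983 CPM beside 889 to 902. The library of A178D replicate 4 also had the steepest slope with transcript length (-0.13 log2 units for each doubling) and the lowest total (33080675 counts), and the cause of its high values was not tested.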

How the results depend on the processing

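The count of complex I genes called lower was 0 under every alternative, and the count called higher was 0 except for 1 (Ndufaf1) with DESeq2 and 1 (Ndufaf1) with WT replicate 1 and A178D replicate 4 both left out. The assembly factor median stayed above 0, from 0.052 with length and GC offsets to 0.16 without A178D replicate 2. The subunit median stayed above 0 in every fit, but was 0.023 with length offsets, 0.022 with length and GC offsets and 0.0019 with both libraries left out, and single libraries left out gave 0.060 to 0.18. That the offsets lower the median follows from their construction and the short length of the subunits. Leaving out both libraries lowers it because they held the lowest and highest subunit levels. Among the values of modules and of genes taken by the naming rule, 697 kept direction and side of the threshold, 22 became called and 35 values of genes changed sign. Other genes are not in this tally. Module medians moved by over 1 SD in 6 cases, and 2 of these were below 0, N at -0.0019 with both libraries left out and the proximal arm at -0.0037 with the replicate block, length and GC offsets together. Ndufaf6, with the lowest level per kilobase among assembly factors, had 566 to 900 counts in a library. The effect of depth on single members was not tested.

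Genes called higher over all genes (145 in edgeR) numbered 306 with DESeq2, 239 with length and GC offsets, 227 with those of the shortest principal transcript, 353 with both libraries left out, 24 at an adjusted p under 0.01, and 24 (without WT replicate 3) to 215 (without WT replicate 1) with 1 library left out. Genes called lower (182) numbered 380 with DESeq2, 286 with length and GC offsets, 407 with both libraries left out, 40 at an adjusted p under 0.01, and 32 to 238 with 1 library left out. A stricter threshold calls fewer genes by construction, and otherwise the cause was not tested.

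The replicate block, which takes replicates of the same number as paired, gave 124 genes higher and 147 lower, with a subunit median of 0.16 and an assembly factor median of 0.16. Whether replicate numbers pair the hearts is not known from the labels. Correlations between groups of the deviations from each group's mean were 0.0031, -0.040 and -0.042 for the same number. For unlike numbers they ran from -0.070 to 0.066, so these values cannot decide whether the numbers mark pairs. With the block Ndufaf7 was 0.021, and with block, length and GC offsets together Ndufaf5 was -0.021, Ndufs7 -0.026, Ndufv1 -0.041 and Sdhb -0.016, all changed in sign. The latter fit called Nnt (adjusted p = 0.0491) and Tfam (0.0427), as the offsets alone did, and Chchd4 (adjusted p = 0.0484, 0.0599 with length and GC offsets alone) and, unlike those offsets alone, did not call Ogdh.

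Log2 fold changes of genes taken by the naming rule also changed sign elsewhere, and the cause was not tested. Subunits outside the rule did so too and are not all listed. Among them, Ndufa1 was -0.092, Ndufb9 -0.053 and Ndufb10 -0.051 with length and GC offsets, where 23 of 36 subunits lay above 0. With length offsets Ndufa4 was -0.035, Ndufaf5 -0.015, Ndufs7 -0.031, Ndufv1 -0.034, Ndufv2 -0.022 and Sdhb -0.016. With length and GC offsets Ndufa4 was -0.021, Ndufaf5 -0.012, Ndufs3 -0.0016, Ndufs7 -0.034, Ndufv1 -0.043 and Sdhb -0.026. With offsets of the shortest principal transcript Ndufa4 was -0.027, Ndufs7 -0.038, Ndufv1 -0.034 and Sdhb -0.014. With both libraries left out Ndufa4 was -0.052, Ndufs7 -0.034, Ndufv1 -0.085, Ndufv2 -0.087 and Sdhb -0.040. Leaving out 1 library at a time gave -0.014 to 0.17 for Ndufa4, -0.060 to 0.024 for Ndufaf7, -0.086 to 0.014 for Ndufs1, -0.0075 to 0.11 for Ndufs7, -0.038 to 0.062 for Ndufv1 and -0.053 to 0.11 for Ndufv2.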

Other observations

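Genes of the other lists with an unadjusted p under 0.05 that the naming rule did not take are given here, chosen after their values were seen. Timmdc1, an assembly factor of the membrane arm of complex I, read 50.4, 53.9 and 57.4 in the WT hearts and 63.2, 57.2, 58.4 and 66.6 in the A178D hearts, and A178D replicate 2 lay just below WT replicate 4 (log2 fold change 0.19, SE 0.079, adjusted p = 0.256 by edgeR), at 0.12 with the length and GC trends removed and 0.10 with WT replicate 1 and A178D replicate 4 left out, and neither fit gave it an unadjusted p under 0.05. Polrmt, the mitochondrial RNA polymerase, stood at 42.1, 46.3 and 45.5 in the WT hearts and 47.6, 47.8, 51.96 and 57.01 in the A178D hearts, with each A178D heart above each WT heart (log2 fold change 0.19, SE 0.083, adjusted p = 0.258), at 0.21 with the length and GC trends removed and 0.10 with WT replicate 1 and A178D replicate 4 left out, where the unadjusted p was no longer under 0.05. Yy1 was at 35.8, 33.6 and 32.95 in the WT hearts and 27.9, 28.7, 30.6 and 31.4 in the A178D hearts, with each A178D heart below each WT heart (log2 fold change -0.20, SE 0.079, adjusted p = 0.216), at -0.14 with the length and GC trends removed, where the unadjusted p was no longer under 0.05, and -0.19 with WT replicate 1 and A178D replicate 4 left out.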
